A study of Mus musculus with 20 samples.

Results

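In all, 10 genes of antigen presentation by the major histocompatibility complex (MHC) were followed in RNA-seq libraries of the temporomandibular joint (TMJ) of mice. They were taken by name from a deposited count table of 54532 genes. The 6 class I genes were *B2m*, *H2-K1*, *H2-D1*, *Tap1*, *Tap2* and *Tapbp*, and the 4 class II genes were *H2-Aa*, *H2-Ab1*, *H2-Eb1* and *Cd74*. All 10 passed the filter on low counts and were among the 15984 genes tested. The series held 20 libraries from condylar heads collected with a part of the subchondral bone. Every animal was an Acan-Cre;Loxl2 fl/fl mouse, in which a tamoxifen-dependent Cre driven from the aggrecan locus is meant to delete *Loxl2*, the gene of a collagen-crosslinking lysyl oxidase, in cartilage. The 8 control animals received vehicle and the 12 animals labelled knockout received tamoxifen at 75 mg/kg, starting at an age of 6 months, and tissue was taken after 4 months. Both groups held males and females, and the labels of single libraries give no sex and no batch. Tamoxifen and the deletion came together, so their effects cannot be told apart.

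MHC class I molecules are present on nearly all nucleated cells and show peptides from the cytosol to CD8+ T cells. Each consists of a heavy chain, such as the products of *H2-K1* and *H2-D1*, and the light chain encoded by *B2m*. The transporter made of TAP1 and TAP2 pumps peptides into the endoplasmic reticulum, and tapasin, the product of *Tapbp*, helps to load them. MHC class II molecules are paired α and β chains that show peptides from endosomes to CD4+ T cells, and they are made mainly by B cells, dendritic cells and macrophages. CD74, the invariant chain, guards the class II groove until the endosome is reached. NLRC5 drives class I genes and CIITA drives class II genes, and both work through a shared promoter module of X and Y boxes.

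That module could be read in the promoters of several of the 10 genes. RefSeq promoter windows of 250 bases before to 50 bases after the first-listed transcription start (build GRCm38.p6) were given for 7 of the 10 genes, namely *B2m*, *H2-K1*, *H2-D1*, *Tap1*, *Tapbp*, *H2-Aa* and *H2-Eb1*. Searched on both strands were the Y box letters ATTGG, the X2 box letters TGACG, the letters TTTCNNTT found in interferon-stimulated response elements, and the κB letters GGGATTCCC. Over the windows of 27025 genes, 37.9% held the Y box letters, 21% the X2 letters, 24.2% the interferon letters and 0.37% the κB letters. X2 letters followed on the same strand by Y box letters 10 to 40 letters later stood in 1.04% of all windows and in 4 of the 7, those of *B2m*, *H2-K1*, *H2-D1* and *H2-Aa*. The stretches that carry this arrangement are shown to let class I and class II promoters be compared, with the matched letters in capitals. They lie at chr2:122147547-122147641 on the plus strand (*B2m*), chr17:34000356-34000460 on the minus strand (*H2-K1*), chr17:35262921-35263048 on the plus strand (*H2-D1*) and chr17:34287864-34288039 on the minus strand (*H2-Aa*).
B2m: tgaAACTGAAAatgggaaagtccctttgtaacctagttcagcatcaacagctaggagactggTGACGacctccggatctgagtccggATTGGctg
H2-K1: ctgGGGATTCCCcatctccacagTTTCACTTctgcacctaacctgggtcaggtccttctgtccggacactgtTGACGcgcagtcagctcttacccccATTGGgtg
H2-D1: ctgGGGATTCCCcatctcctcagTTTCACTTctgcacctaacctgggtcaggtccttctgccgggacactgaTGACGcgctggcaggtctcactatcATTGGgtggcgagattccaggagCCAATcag
H2-Aa: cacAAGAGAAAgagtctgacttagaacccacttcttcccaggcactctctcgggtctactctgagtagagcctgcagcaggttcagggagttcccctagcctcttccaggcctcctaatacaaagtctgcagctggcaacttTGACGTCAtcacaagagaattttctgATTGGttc
Between the X2 and the Y letters lay 20 letters in *B2m*, *H2-K1* and *H2-D1* and 21 in *H2-Aa*. The *H2-K1* and *H2-D1* stretches also held the κB and the interferon letters in the same order, and over 105 letters aligned at the κB match 94 (89.5%) were identical. The *B2m* and *H2-Aa* stretches held no κB letters, nor did the windows of *Tap1*, *Tapbp* and *H2-Eb1*. In the window of *H2-Eb1* the Y letters were found at 2 places and the X2 letters at none, and *Tap1* and *Tapbp* held Y letters without the paired arrangement. These are matches of letters and not measured binding sites.

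The libraries held from 11153820 to 27045668 counts, so that 3 counts correspond to between 0.111 and 0.269 CPM, the unit of counts scaled to library size. *Loxl2* itself, which checks the labels, was not lower in the knockout-labelled libraries. It ranged from 16 to 103 CPM in control and from 28.8 to 126 CPM in the knockout-labelled libraries, with a log2 fold change of 0.64 (SE 0.28, adjusted p = 0.101 in edgeR). Without knockout replicate 12 it was called higher, at 0.74 (adjusted p = 0.0313 in edgeR). The counts cover whole genes, so transcripts without the deleted exons are counted too. Control replicate 8 stood apart in tissue markers, with a summed level of 10 chondrocyte genes of 51.0 CPM, the lowest of all libraries, against a control median of 1908 CPM. Its summed level of 10 skeletal muscle genes was the highest, at 180141 CPM. Knockout replicates 2 and 6 stood apart for the genes described here, and both were the highest libraries in each of the 10 genes. The calls among the 10 genes are therefore also given without these libraries. All directions are those of the knockout-labelled libraries against control.

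**Figure D1:**
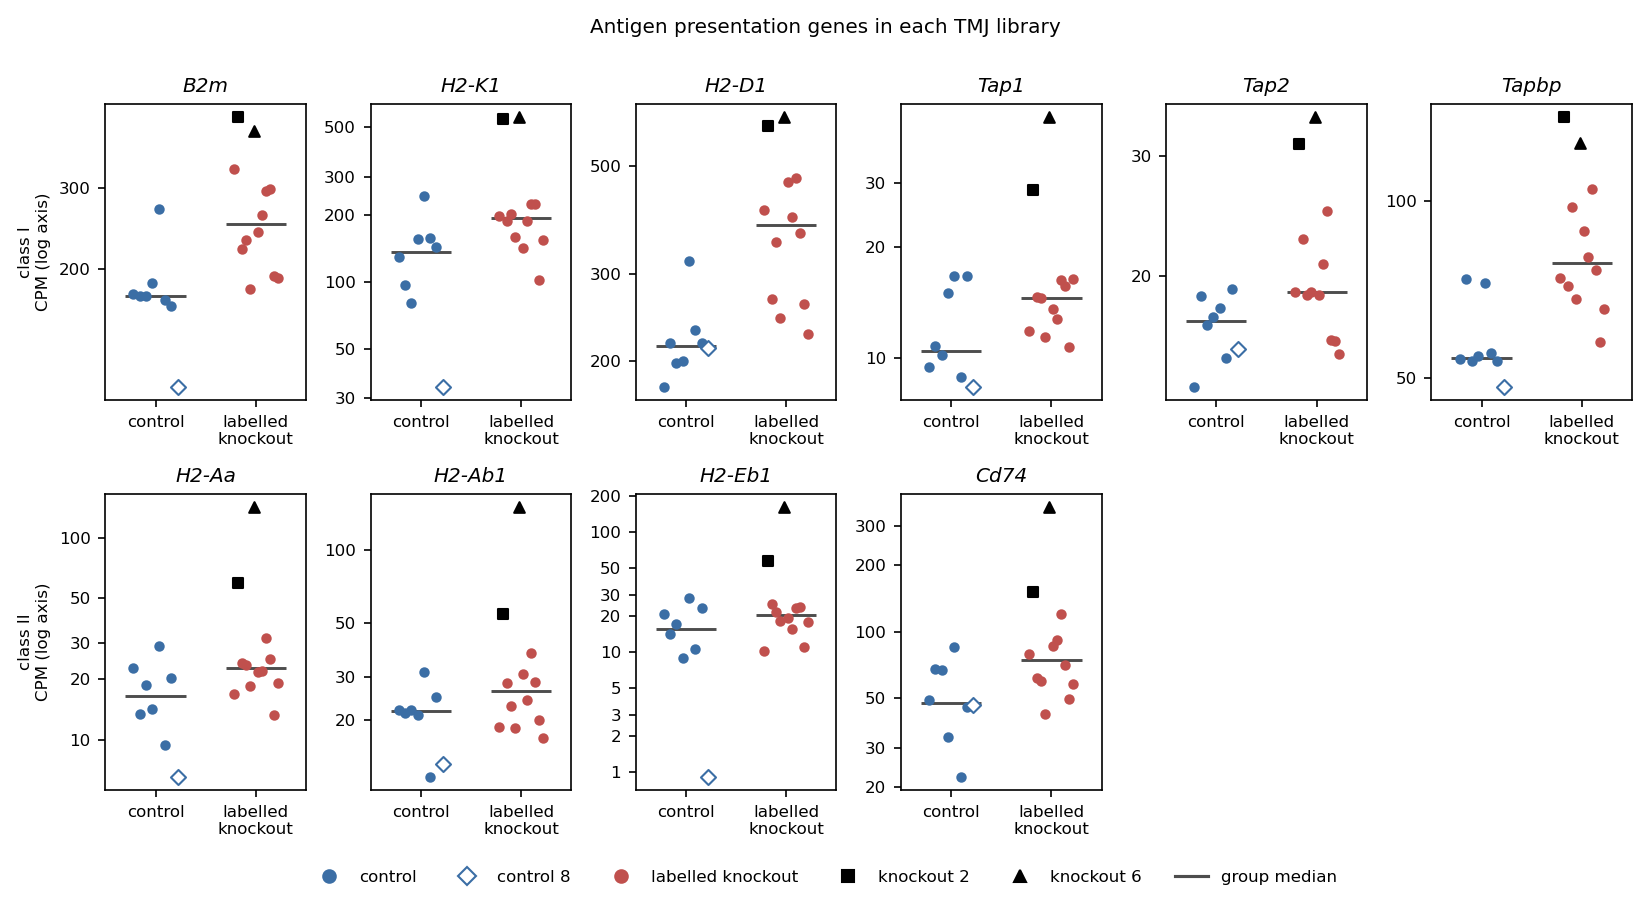
Each point is the level of a gene in 1 library, in CPM on a log axis, for 8 control libraries and 12 knockout-labelled libraries, with a line at the group median; the top row holds the class I genes and the bottom row the class II genes. Knockout 2 and 6 (black) lie above all other libraries in every panel, and control 8 (open diamond) is the lowest library for *B2m*, *H2-K1*, *Tap1*, *Tapbp*, *H2-Aa* and *H2-Eb1*.

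With all libraries, the edgeR calls fell in the class I arm, while the median fold change was larger in the class II arm. All 10 genes had a positive log2 fold change, with a median of 1.01 for class II and 0.60 for class I, against -0.02 over all tested genes. This order rested on knockout replicate 6, without which both medians were 0.54. Single genes did not follow it, as *H2-K1* (0.88) exceeded *H2-Ab1* (0.84). Of the 10 genes, 3 of the 6 class I genes were called higher by edgeR at an adjusted p below 0.05 and 0 of the 4 class II genes were. Of all tested genes, 12.0% were called higher. At an unadjusted p below 0.05 all 6 class I and all 4 class II genes were higher, against 18.3% of all tested genes. DESeq2, which called 11.6% of the genes higher, called 4 class I genes and 1 class II gene. Scaling by library totals alone moved the median over all genes to 0.12 and the share of higher calls from 52.2% to 72.0%. In bulk tissue a change in the number of cells of a type and a change in RNA per cell cannot be told apart.

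*B2m* (ENSMUSG00000060802, chromosome 2, 122147686 to 122153083, plus strand, GRCm38/mm10) encodes the light chain that every class I molecule shares. Its lowest, median and highest level was 111, 174 and 269 CPM in control and 181, 251 and 427 CPM in the knockout-labelled libraries. All 12 knockout-labelled libraries lay above the control median and 5 above the highest control library, so the groups overlapped. The control mean of 179 ± 43.3 CPM (SD, n = 8) rose to 272 ± 80.4 CPM (SD, n = 12), and the log2 fold change was 0.61 (SE 0.17, adjusted p = 0.016 in edgeR).

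*H2-D1* (ENSMUSG00000073411, chromosome 17, 35262730 to 35267499, plus strand) encodes a classical class I heavy chain. It had the smallest edgeR p of the 10 genes. Its level was 177, 214 and 320 CPM in control (lowest, median and highest) and 227, 378 and 627 CPM in the knockout-labelled libraries. Of the 12 knockout-labelled libraries, 8 lay above the highest control library, replicate 5. The control mean of 221 ± 42.9 CPM (SD, n = 8) rose to 389 ± 133 CPM (SD, n = 12), and the log2 fold change was 0.81 (SE 0.19, adjusted p = 0.00515 in edgeR).

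*H2-K1* (ENSMUSG00000061232, chromosome 17, 33996017 to 34000347, minus strand) encodes the other classical heavy chain listed here. Its level was 33.7, 137 and 245 CPM in control and 102, 194 and 555 CPM in the knockout-labelled libraries. Control replicate 8 was the lowest library and knockout replicates 2 and 6, at 545 and 555 CPM, were more than 2-fold above any other library. The mean was 131 ± 63.1 CPM (SD, n = 8) against 241 ± 149 CPM (SD, n = 12), and the log2 fold change of 0.88 (SE 0.34) did not pass (adjusted p = 0.0622 in edgeR, DESeq2 adjusted p = 0.0286). Its fold change was 0.74 without control replicate 8.

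The loading genes differed among themselves. *Tapbp* (ENSMUSG00000024308, chromosome 17, 33915899 to 33929292, plus strand), the gene of tapasin, had 48.3, 54.1 and 73.6 CPM in control and 57.5, 78.3 and 138 CPM in the knockout-labelled libraries. All 12 knockout-labelled libraries were above the control median and 8 above the highest control. The control mean of 58.0 ± 9.47 CPM (SD, n = 8) rose to 87.3 ± 24.9 CPM (SD, n = 12), and the log2 fold change was 0.59 (SE 0.15, adjusted p = 0.00891 in edgeR). The transporter genes did not pass in edgeR. *Tap1* (ENSMUSG00000037321, chromosome 17, 34187553 to 34197225, plus strand) had 8.35, 10.5 and 16.8 CPM in control and 10.7, 14.6 and 45.3 CPM in the knockout-labelled libraries, and only replicates 2 and 6 exceeded the highest control library. Its log2 fold change was 0.56 (SE 0.25, adjusted p = 0.111 in edgeR). *Tap2* (ENSMUSG00000024339, chromosome 17, 34203527 to 34216321, plus strand) had 13.7, 17.2 and 19.1 CPM in control and 15.3, 18.9 and 34.1 CPM in the knockout-labelled libraries, of which 5 exceeded the highest control library. Its log2 fold change was 0.35 (SE 0.14, adjusted p = 0.078 in edgeR).

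In the class II genes knockout replicate 6 stood 4.85 to 7.82 times above the median of its group, against 1.59 to 3.10 times in the class I genes. *Cd74* (ENSMUSG00000024610, chromosome 18, 60803848 to 60812652, plus strand) was the most abundant class II gene. Its level was 22.2, 47.7 and 85.5 CPM in control and 42.3, 74.8 and 363 CPM in the knockout-labelled libraries. Knockout replicate 6 held 363 CPM and replicate 2 held 150 CPM, while the next library held 120 CPM. The mean was 52.2 ± 20.4 CPM (SD, n = 8) against 103 ± 87.5 CPM (SD, n = 12), and the log2 fold change of 0.98 (SE 0.36) fell just short of the threshold (adjusted p = 0.053 in edgeR, DESeq2 adjusted p = 0.0204).

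The chain genes of the I-A molecule, *H2-Aa* and *H2-Ab1*, shared this pattern. *H2-Aa* (ENSMUSG00000036594, chromosome 17, 34282744 to 34287823, minus strand), the α chain, had 6.58, 16.4 and 29.2 CPM in control and 13.3, 22.6 and 141 CPM in the knockout-labelled libraries. *H2-Ab1* (ENSMUSG00000073421, chromosome 17, 34257689 to 34269419, plus strand), the β chain, had 11.8, 21.7 and 31.5 CPM in control and 16.9, 26.3 and 149 CPM in the knockout-labelled libraries. For both genes 3 of 12 knockout-labelled libraries exceeded the highest control library, and these were replicates 6, 2 and 9. The log2 fold change was 1.04 (SE 0.41, adjusted p = 0.0686 in edgeR) for *H2-Aa*. That of *H2-Ab1* was 0.84 (SE 0.37, adjusted p = 0.0996 in edgeR).

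*H2-Eb1* (ENSMUSG00000060586, chromosome 17, 34305867 to 34316674, plus strand) encodes the β chain of the I-E molecule. It had 0.919, 15.7 and 28.1 CPM in control and 10.2, 20.4 and 160 CPM in the knockout-labelled libraries. The lowest control value was that of replicate 8, with 12 counts, and the next control library held 9 CPM. Its log2 fold change was the largest of the 10, at 1.12, with the largest error (SE 0.53, adjusted p = 0.128 in edgeR). DESeq2, which replaces single extreme counts, did so for *H2-Aa* and *H2-Eb1* only and gave 0.54 and 0.49 for them (DESeq2 adjusted p = 0.116 and 0.34). The I-E α chain pseudogene *H2-Ea-ps* was not tested, with at most 0.493 CPM in any control library and 0.395 CPM in any knockout-labelled library.

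Without knockout replicates 2 and 6, a comparison chosen after the values had been seen, the class I calls stayed and the class II differences shrank. The same 3 class I genes, *B2m*, *H2-D1* and *Tapbp*, were called, with log2 fold changes of 0.45, 0.64 and 0.43 (adjusted p = 0.0448, 0.013 and 0.0195 in edgeR), where 9.07% of all genes were called higher. The class I median went from 0.60 to 0.44. The class II median went from 1.01 to 0.31, with 0.36 for *H2-Aa*, 0.23 for *H2-Ab1*, 0.26 for *H2-Eb1* and 0.46 for *Cd74*, none of which passed (adjusted p from 0.166 to 0.648 in edgeR). *H2-K1* went from 0.88 to 0.45 and *Tap1* from 0.56 to 0.20. Leaving out replicate 6 alone took *H2-Ab1* from 0.84 to 0.39 and *H2-Eb1* from 1.12 to 0.51. Replicates 2 and 6 were the highest libraries of each gene, so their omission lowers the fold changes. With each library left out in turn, the class I count ran from 3 to 5 and the class II count from 0 to 2. The class II count was 2 without control replicate 5 or knockout replicate 11, 1 without knockout replicate 3, 4, 5 or 12, and 0 without any of the others, control replicate 8 included.

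**Figure D2:**
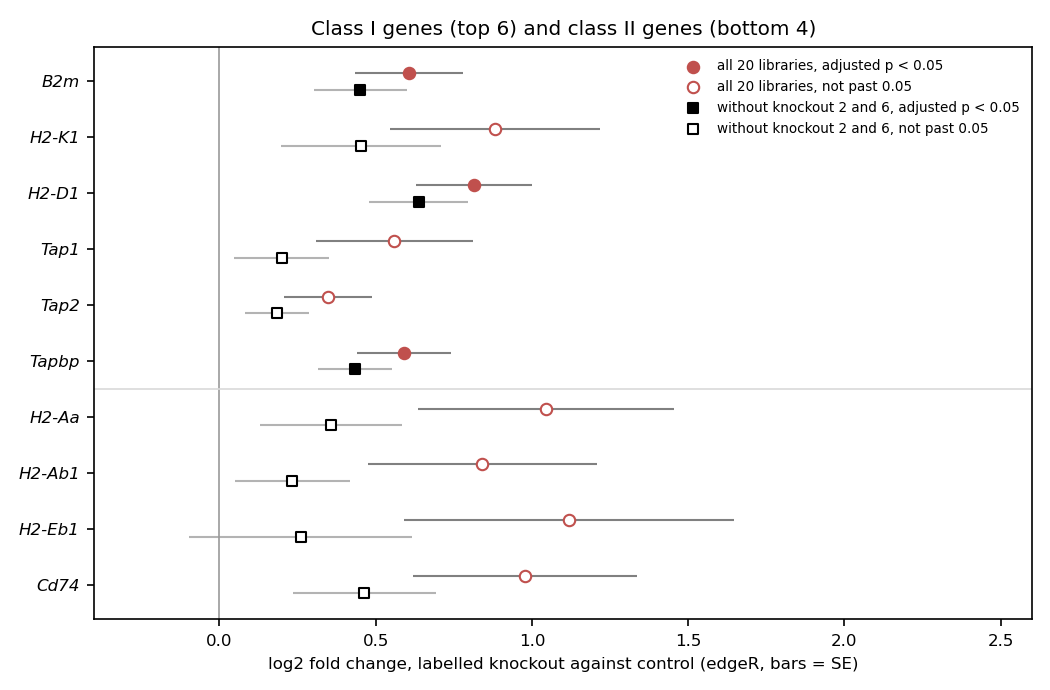
Points give the edgeR log2 fold change of each gene, labelled knockout against control, with the SE as a bar, for all 20 libraries (red circles) and without knockout 2 and 6 (black squares); filled points have an adjusted p below 0.05. The class I genes *B2m*, *H2-D1* and *Tapbp* stay filled in both, and the class II values fall from between 0.84 and 1.12 to between 0.23 and 0.46.

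Levels were set against each other per kb of exon. In control *B2m* was highest with 208 CPM per kb ± 50.3 (SD, n = 8), above *H2-D1* with 85.9 ± 16.6 in 8 of 8 control libraries. *H2-K1* followed with 44.5 CPM per kb ± 21.5 and *Cd74* with 31.1 ± 12.1, and *H2-K1* exceeded *Cd74* in 5 of 8 control libraries and in 10 of 12 labelled knockout, so this order did not hold in each library. *Tapbp* had 16 CPM per kb ± 2.61. *H2-Ab1* with 8.18 and *H2-Eb1* with 7.97 CPM per kb were not separated, the former being higher in 3 of 8 control libraries. Neither were *Tap2* with 4.45 and *H2-Aa* with 4.43 CPM per kb, and *Tap1* came last with 2.19 CPM per kb. Exon length was the union over all annotated transcripts, which lowers the value of genes with long rare transcripts.

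Class II was then compared with class I inside each library, where no scaling between libraries enters. The log2 ratio of *H2-Ab1* to *H2-K1* counts was -2.51 ± 0.73 (SD, n = 8) for control against -2.82 ± 0.47 (SD, n = 12) for the knockout-labelled libraries. The difference of -0.31 was smaller than the SD of either group (exact permutation p = 0.261 over 125970 assignments, two-sided, 0.347 after Benjamini-Hochberg adjustment over 4 ratios). In control this ratio was highest in replicates 8, 3 and 2, which had the lowest control ratios of *H2-K1* to *H2-D1*, described below. The knockout-labelled libraries followed this in part. Replicate 6, outside the set of libraries described below, was highest (-1.90), and replicates 7, 11 and 9 of that set came next. Replicate 8 of the set stood below replicate 3, outside it, and replicate 1 of the set was lowest (-3.41). The ratio of *Cd74* to *B2m* was -1.85 ± 0.59 (SD, n = 8) and -1.64 ± 0.54 (SD, n = 12), a difference of 0.21 (exact permutation p = 0.436). Single libraries moved both differences, the former to -0.15 without control replicate 8 and -0.49 without control replicate 6. The latter was 0.06 without control replicate 6, 0.12 without control replicate 4 and 0.08 without knockout replicate 6. Knockout replicate 6 stood above the rest, with a log2 ratio of *Cd74* to *B2m* of -0.14. A difference between the arms was therefore not shown at this number of libraries.

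Both arms were also set against *Ptprc*, the gene of the pan-leukocyte antigen CD45. *Ptprc* had a control mean of 4.08 ± 1.85 CPM (SD, n = 8) and rose to 10.4 ± 4.10 CPM (SD, n = 12), and the log2 fold change was 1.36 (SE 0.28, adjusted p = 0.00276 in edgeR). Relative to *Ptprc*, *H2-Ab1* fell, from a log2 ratio of 2.42 ± 0.38 (SD, n = 8) to 1.62 ± 0.63 (SD, n = 12), by 0.80 (exact permutation p = 0.00594, adjusted p = 0.0238). Of the 12 knockout-labelled libraries, 2 lay above the control median, and replicate 6 was the highest of all at 3.20. Without control replicate 4 or 8 the adjusted p of the exact permutation test was 0.0514 and 0.0542. The ratio of *H2-K1* to *Ptprc* was 4.93 ± 0.66 (SD, n = 8) and 4.45 ± 0.49 (SD, n = 12), a difference of -0.49 that did not pass with all libraries (exact permutation p = 0.0731, adjusted p = 0.146) and passed without control replicate 3 (adjusted p = 0.0287).

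**Figure D3:**
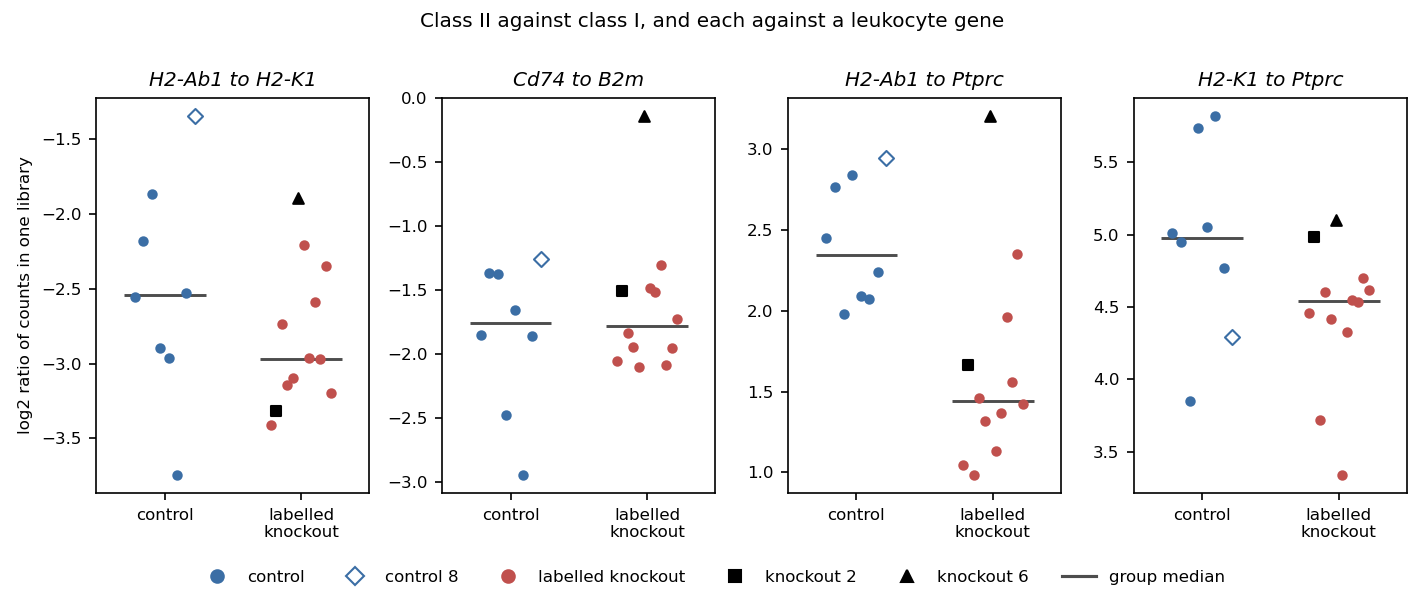
Each point is the log2 ratio of the counts of 2 genes inside 1 library, with 0.5 added to each count, and lines are group medians. The groups overlap in all 4 panels, and *H2-Ab1* to *Ptprc* is lower in 10 of the 12 knockout-labelled libraries than the control median.

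Lists of cell type markers were read beside these genes. All 5 leukocyte genes were called higher, with *Cd53* at a log2 fold change of 1.28 and *Laptm5* at 2.10 (adjusted p = 0.00633 and 0.00141 in edgeR). Of 12 macrophage genes 9 were called higher, among them *Adgre1* (1.29) and *Csf1r* (2.0) and *Cd68* (2.20), and of 10 osteoclast genes all 10, among them *Acp5* (2.85), *Ctsk* (2.68) and *Mmp9* (2.81). Of 8 dendritic cell genes tested, 2 were called higher, *Itgax* at 1.91 and *Clec10a* at 1.09, while *Xcr1* (0.16) did not pass and *Flt3* was not tested. None of the 6 B cell genes tested was called by edgeR, at an adjusted or an unadjusted p below 0.05, with *Cd79a* at -0.80 and *Cd79b* at -0.57. *Fcer2a*, which the filter on low counts removed, was called lower by DESeq2 (-2.26, DESeq2 adjusted p = 0.00883). Of 10 T and NK cell genes only *Cd4* passed the filter on low counts, and it was called higher at 1.78 (adjusted p = 0.0309 in edgeR), while *Cd3e*, *Cd3d* and *Cd3g* were at most 0.612 CPM in control.

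The high libraries were also high in some of these lists. Knockout replicates 2 and 6 had the highest summed level of the leukocyte genes (258 and 242 CPM, against a median of 118 CPM over the knockout-labelled libraries) and of the osteoclast genes (8093 and 5736 CPM, against 2526 CPM). They were not the highest for the macrophage genes, with 657 and 757 CPM against a knockout-labelled median of 582 and a highest value of 1052 CPM. Among 20 libraries replicate 2 had rank 6 for the dendritic cell sum and rank 9 for the B cell sum. Replicate 6 also had the highest sum of the T and NK cell genes (17.4 CPM) and of the dendritic cell genes (30.9 CPM), and the highest *Cd79a* (4.69 CPM) of its group. Control replicate 5, the highest control library for 7 of the 10 genes, held 8.72 CPM of *Cd79a*, the highest of all libraries. The summed level of the 10 B cell genes ran otherwise. It was highest in control replicate 8, at 421 CPM, against 286 CPM in knockout replicate 6, and control replicate 8 was the lowest library for *H2-Aa* and *H2-Eb1*. In control replicate 8 the leukocyte sum was the lowest of all, at 18.8 CPM. Without knockout replicates 2 and 6, edgeR called 9.07% of all genes higher. It called 4 leukocyte, 8 macrophage, 9 osteoclast and 0 T and NK cell genes higher, *Cd4* having 1.28 (adjusted p = 0.107 in edgeR). The *Cd4* call was also lost without control replicate 4, 6, 7 or 8 or either of these knockout replicates. The part of these cells in the results was not tested.

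The remaining marker lists moved less evenly. A count such as 1 called higher of 8 lies near the 12.0% of all tested genes called higher. Of 8 neutrophil genes tested 1 was called higher, *Mpo*, while *S100a8* (1.96) and *S100a9* (1.98) did not pass and *Ly6g* was not tested. Mast cell genes were called higher in 4 of 5, with *Cpa3* at 3.46, *Cma1* at 3.30 and *Mcpt4* at 3.35. No endothelial gene of 9 was called, with *Pecam1* at -0.04, *Cdh5* at -0.17 and *Kdr* at -0.34. Of 7 chondrocyte genes tested 2 were called higher, not including *Acan* (-0.69), *Col2a1* (0.99) and *Sox9* (0.33). Of 8 osteoblast and osteocyte genes 4 were called higher, including *Bglap* (2.22) and *Sp7* (1.4), with *Ibsp* at 0.94 not past the threshold. Of 10 skeletal muscle genes 5 were called lower, including *Ckm* (-0.74), with *Acta1* (-0.45) and *Myh4* (-2.41) not past the threshold. Of 2 salivary gland genes tested, *Bpifa2* was called higher by edgeR (6.21) but not by DESeq2, with 0 counts in some libraries of both groups, and *Dcpp1* and *Dcpp2* were not tested. DESeq2 called 1 of the 8 salivary gland genes lower and 0 higher. Their summed level had a median of 86.7 CPM in control and 45.1 CPM in the knockout-labelled libraries, with highest values of 103 and 3093 CPM.

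The other genes of the class I pathway were read as a list of 41, of which 32 were tested. There, 8 were called higher and 0 lower, with a median log2 fold change of 0.37. Of all tested genes, 12.0% were called higher and 11% lower. Among the chains, *Cd1d1*, which presents lipids to NKT cells, rose by 1.48 (SE 0.32, adjusted p = 0.00374 in edgeR). *Fcgrt*, the heavy chain of the neonatal Fc receptor, rose by 0.55 (SE 0.15, adjusted p = 0.0141 in edgeR). Neither of these shows peptides to CD8+ T cells, and both pair with the *B2m* product. No other chain tested was called by edgeR, including *H2-Q4* (0.57), *H2-T22* (0.16) and *H2-T23* (0.55). DESeq2 called *H2-Q10* as well (log2 fold change 1.17, DESeq2 adjusted p = 0.0469).

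In peptide supply and loading, 3 of 12 genes were called higher, against 12.0% of all tested genes. *Psmb8* and *Psmb10*, catalytic subunits of the immunoproteasome, rose by 0.73 (SE 0.24, adjusted p = 0.0329 in edgeR) and 0.36 (SE 0.11, adjusted p = 0.0246 in edgeR). The third subunit, *Psmb9*, had a log2 fold change of 0.54 that did not pass (adjusted p = 0.0851 in edgeR). *Pdia3*, a disulfide isomerase of the loading complex that also serves glycoprotein folding in general, rose by 0.57 (SE 0.14, adjusted p = 0.00609 in edgeR). Without knockout replicates 2 and 6 this group held 1 call, *Pdia3*, where 9.07% of all genes were called higher. The *Psmb8* call was lost in 6 of the 20 omissions of a single library (control replicate 2, 3, 4 or 8, knockout replicate 2 or 6) and that of *Psmb10* without control replicate 3.

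Among regulators of class I, receptor chains of the interferons were called, while *Nlrc5* and *Irf1* were not. *Ifngr1* rose by 0.44, *Ifnar1* by 0.44 and *Ifnar2* by 0.59 (adjusted p = 0.00629, 0.00461 and 0.00633 in edgeR). *Nlrc5* had 3.52 to 10.6 CPM in control and 4.70 to 20.1 CPM in the knockout-labelled libraries, with a log2 fold change of 0.69 (SE 0.27, adjusted p = 0.066 in edgeR, DESeq2 adjusted p = 0.0468). *Irf1*, an interferon-induced factor, had a log2 fold change of 0.28 (SE 0.12, adjusted p = 0.107 in edgeR).

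The class II pathway list held 26 other genes, of which 23 were tested, 8 were called higher and 1 lower, with a median of 0.42. Over all tested genes 12.0% were called higher and 11% lower. The list of endosomal processing genes, in which *Cd83* was placed as well, accounted for 6 of the 8 genes called higher. *Ifi30*, a thiol reductase of the endosome, rose by 1.56 (SE 0.26, adjusted p = 0.00123 in edgeR), and its level in all 12 knockout-labelled libraries exceeded the control median. *Ctss*, the protease that trims the invariant chain, rose by 1.27 (SE 0.38, adjusted p = 0.0205 in edgeR). *Ctsh* rose by 0.73, *Lgmn* by 0.63 and *Ctsb* by 0.42, all lysosomal proteases found in many cells, and *Cd83*, which stabilises class II at the surface, rose by 1.23 (adjusted p = 0.0113, 0.00705, 0.00913 and 0.00381 in edgeR). These 6 were called without knockout replicates 2 and 6 as well.

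Of the editors that exchange peptides in the class II groove, *H2-DMb1* rose by 1.16 (SE 0.38, adjusted p = 0.0341 in edgeR), with replicates 6 and 2 the highest libraries at 18.2 and 17.8 CPM. *H2-DMa*, its partner, had 0.49 and did not pass (adjusted p = 0.172 in edgeR). Without replicates 2 and 6 none of these editors was called, and the *H2-DMb1* call was also lost without control replicate 3, 4 or 6 or knockout replicate 2, 6 or 10 alone. Of 10 regulators of class II, 1 was called higher and 1 lower, near the 12.0% and 11% of all tested genes called so. *Ciita*, the master regulator, had 0.954 to 4.97 CPM in control and 0.731 to 7.50 CPM in the knockout-labelled libraries, with a log2 fold change of 0.13 (SE 0.39, adjusted p = 0.846 in edgeR), and *Rfx5* had -0.12 (SE 0.13, adjusted p = 0.538 in edgeR). *Nfyb*, a subunit of the factor that binds the Y box, fell by 0.29 (SE 0.08, adjusted p = 0.0174 in edgeR), and 0 of 12 knockout-labelled libraries lay above the control median. This call was lost without control replicate 8 (adjusted p = 0.0588 in edgeR), with library totals alone (-0.13, adjusted p = 0.209 in edgeR) and with no filter (adjusted p = 0.0502 in edgeR). It was also lost with the replicate number as a block in 16 libraries, where 7 class II pathway genes were called, 7 of them higher. *Spi1*, the gene of PU.1, which specifies myeloid cells and osteoclasts, rose by 2.11 (SE 0.38, adjusted p = 0.00144 in edgeR). Of 5 co-stimulation genes tested, *Cd40* alone was called, at 0.94 (SE 0.26, adjusted p = 0.014 in edgeR).

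**Figure D4:**
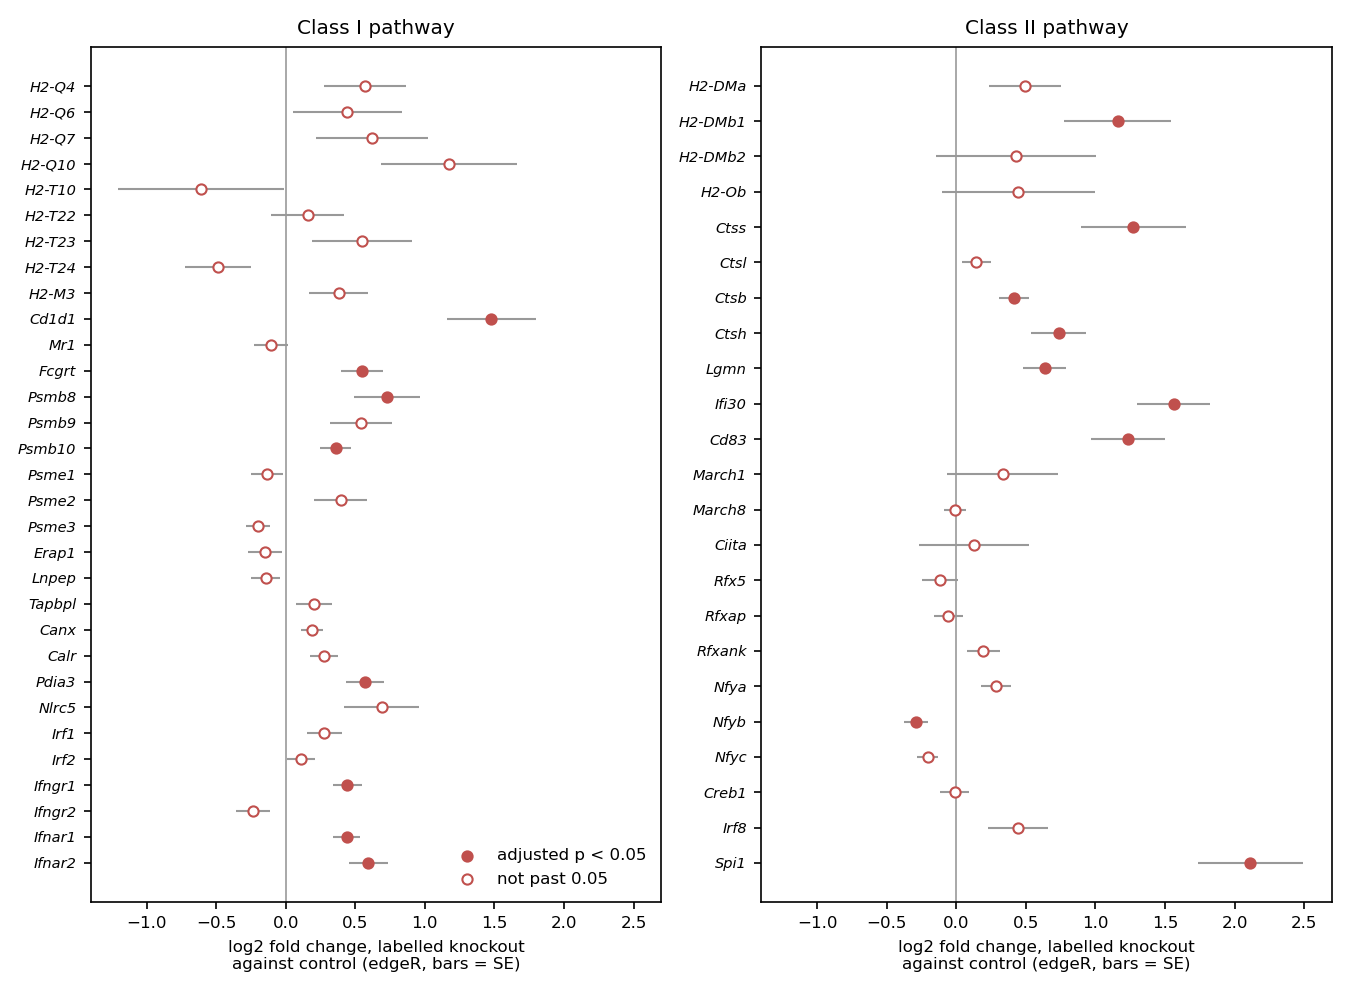
Points give the edgeR log2 fold change of class I and class II pathway genes tested, 1 class I gene left out, labelled knockout against control, with the SE as a bar; filled points have an adjusted p below 0.05. *Ifi30* and *Spi1* stand farthest to the right in the class II panel and *Cd1d1* in the class I panel, while *Ciita* lies near 0.

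Within a group the class II chains varied together from library to library. In all, 12 relations were computed on log2 CPM and adjusted together. Over the 12 knockout-labelled libraries *H2-Aa* and *H2-Ab1* had a Pearson r of 0.97 (permutation p = 2e-05 from 100000 resamples, adjusted 0.00024) and a Spearman rho of 0.85 (permutation p = 0.00083). Over the 8 control libraries r was 0.91 (exact permutation p = 0.00221, adjusted 0.00441) and rho 0.93 (exact permutation p = 0.00223). Without the 2 libraries farthest from the median r was 0.80 and 0.84. *Cd74* and *H2-Ab1* had r = 0.94 in the knockout-labelled libraries (permutation p = 0.00015, adjusted 0.00064, rho 0.85 with permutation p = 0.00101) and 0.73 in control (exact permutation p = 0.0395, adjusted 0.0526, rho 0.62 with exact permutation p = 0.115), and 0.70 and 0.12 without the 2 farthest libraries.

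*B2m* and *H2-K1* gave r = 0.87 in the knockout-labelled libraries (permutation p = 0.00016, adjusted 0.00064, rho 0.80 with permutation p = 0.00241), and 0.69 without the 2 farthest. In control r was 0.89 (exact permutation p = 0.0135, adjusted 0.0229) with rho 0.55 (exact permutation p = 0.171), and it rested on the 2 farthest libraries, without which it was 0.09. Across the arms, *H2-K1* and *H2-Ab1* had r = 0.84 in the knockout-labelled libraries (permutation p = 0.00137, adjusted 0.00329, rho 0.66 with permutation p = 0.0224) and 0.43 without the 2 farthest. In control they had r = 0.53 (exact permutation p = 0.175, adjusted 0.191, rho 0.24 with exact permutation p = 0.582).

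*Ciita* had no difference between the groups past the threshold but followed *H2-Ab1* within the knockout-labelled libraries, with r = 0.84 (permutation p = 0.00024, adjusted 0.00072) and rho = 0.80 (permutation p = 0.00257). This relation was 0.89 without the 2 farthest libraries. In control it was 0.20 (exact permutation p = 0.639, adjusted 0.639, rho 0.45 with exact permutation p = 0.267). *Nlrc5* and *H2-K1* had r = 0.68 in the knockout-labelled libraries (permutation p = 0.0153, adjusted 0.0229, rho 0.61 with permutation p = 0.0392) and 0.58 in control (exact permutation p = 0.126, adjusted 0.151, rho 0.50 with exact permutation p = 0.216), and 0.67 and 0.27 without the 2 farthest. The 2 left out for *Nlrc5* in the knockout-labelled libraries did not include replicate 6, the highest library for *H2-K1*. Whether the relations differ between the groups was not tested.

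The genes most like *H2-K1* and *H2-Ab1* were sought among all protein-coding genes tested, by the Pearson r of deviations from the group means over 20 libraries, given as a description. Nearest to *H2-K1* were *H2-Q6* (0.95), *H2-Q4* (0.91) and *H2-Q7* (0.90), class I genes of the same cluster on chromosome 17, then *Was* (0.89) and *Siglec15* (0.89). How reads that fit several of these near-identical class I genes were counted is not given in the sources used here, so their counts may not be separate measurements. Nearest to *H2-Ab1* were *Ccdc88b* (0.87), *Unc93b1* (0.83), *Psmb9* (0.80), *Cd22* (0.79) and *Limd2* (0.79). Without knockout replicates 2 and 6 the r of *Psmb9* was 0.41, while that of *Ccdc88b* was 0.84.

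The balance between a pair of class I genes fell into separate sets of libraries that cut across the groups. This was noticed in the values and is given without a test. The ratio of *H2-T10* to *H2-T22* counts, neighbouring non-classical class I genes, was between 0.336 and 5.15 in 8 libraries and between 0.0286 and 0.073 in the other 12. The 8 libraries were control replicates 2, 3 and 8 and knockout replicates 1, 7, 8, 9 and 11. They also had the 8 lowest ratios of *H2-K1* to *H2-D1*, from 0.159 to 0.491, although the step up to the other 12 (0.581 to 0.905) was no wider than steps within the 8. Knockout replicates 2 and 6 were not among them and had the highest *H2-K1* to *H2-D1* ratios, 0.905 and 0.884. *H2-Ea-ps* held counts only in control replicates 2, 3 and 8 and knockout replicates 7, 8, 9 and 11, all of the set of 8. These were 1 to 9 counts per library, and knockout replicate 1, also of the set, held 0.

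Control replicate 8 stood farthest out. It held 644 counts of *H2-T10* and 125 of *H2-T22*, where the other control libraries held 22 to 207 and 414 to 1283, and it held 26 counts of *H2-T23*. Its ratio of *H2-Eb1* to *H2-Ab1* was 0.0694, against medians of 0.837 in control and 0.854 in the knockout-labelled libraries. The class I and II chain genes differ in sequence between mouse strains, the reference mm10 is that of C57BL/6J, and the strain background of the animals is not given in the sources used here. What these sets stand for was not tested. The 3 class I genes called with all libraries were also called without control replicate 8, with log2 fold changes of 0.54 for *B2m*, 0.81 for *H2-D1* and 0.57 for *Tapbp* (adjusted p = 0.0336, 0.00977 and 0.019 in edgeR).

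**Figure D5:**
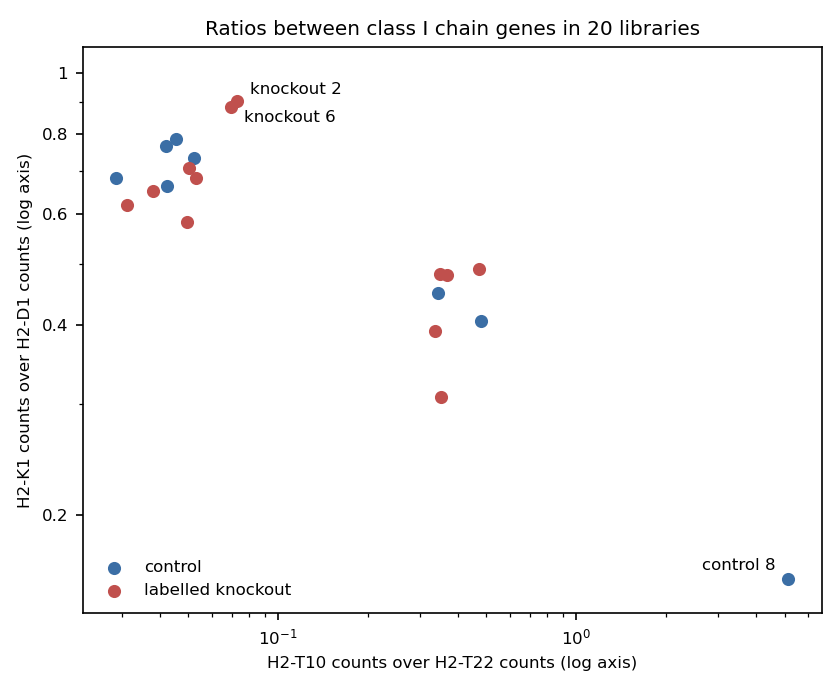
Each point is 1 of 20 libraries, placed by its ratio of *H2-T10* to *H2-T22* counts and its ratio of *H2-K1* to *H2-D1* counts, both on log axes. The 8 libraries, from both groups, lie at the lower right, apart along the horizontal axis, control 8 farthest with ratios of 5.15 and 0.159, and the other 12 lie at the upper left.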

How the data were processed

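TMJ RNA was sequenced as paired-end libraries on an Illumina platform. The authors aligned reads to mm10 and deposited raw counts per Ensembl gene, made with featureCounts. The aligner, annotation, strand setting and treatment of multi-mapping reads are not given in the sources used here. Identifiers were matched to GENCODE M21 for 54495 of 54532 genes, and 37 had no match. Groups came from the labels, which do not say that libraries are separate animals; the study's methods give numbers of mice. The p-values measure the spread between these libraries, which may be technical.

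Counts were tested with edgeR 4.0.16 in R 4.3.3 (filterByExpr, TMM, quasi-likelihood F-test, two-sided, Benjamini-Hochberg over 15984 genes, threshold 0.05), and CPM were TMM-scaled. DESeq2 1.42.0 was an alternative. Ratios added 0.5 to each count and used exact permutation tests. Relations used log2 CPM with a prior count of 2. The code was tested on simulated data.

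The 10 genes and all lists were chosen with earlier results of these data known. Named with values were these genes, called pathway genes and their regulators, the leading 3 genes of each marker list, *Loxl2*, and the 5 genes most like *H2-K1* and *H2-Ab1*. Other genes were named after their values were seen. A few results are not reported here. Alternatives were other scalings, filters, dispersions and gene sets, the replicate number as a block, and omission of libraries.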

Additional observations from a re-analysis of the deposited data

Results flagged for a closer look

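Among 14 sets of 8 control values examined (the 10 genes and 4 ratios), 1 had a library far from the others by Dixon's criterion, and chance marks about 1 in 20 such sets. *H2-D1* reached 320 CPM in control replicate 5, where the next control library held 231 CPM. The same library was the highest control for *B2m*, *H2-K1*, *H2-Aa*, *H2-Ab1*, *H2-Eb1* and *Cd74*, none of which met the criterion. Without it, the *H2-D1* log2 fold change was 0.91 (adjusted p = 0.00271 in edgeR), 4 class I genes were called in place of 3, and 2 class II genes in place of 0.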

How the results depend on the processing

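Over 310 recomputed fold changes of the 10 genes, none reversed, 289 kept their side of the threshold, 20 came to pass it and 1 no longer did. The class I count was 5 in the 16 libraries that share replicate numbers, without the block, and 3 to 5 with each library left out. The class II count was 1 with DESeq2, with library totals alone, with protein-coding genes alone and in those 16 libraries without the block, and 0 to 2 with each library left out. The highest class I count came without knockout replicate 12, and the class II count was 2 without control replicate 5 or knockout replicate 11. Of the 12 relations 8 passed, and 2 without the 2 farthest libraries. The *H2-Ab1* to *Ptprc* difference ran from -0.94 to -0.73 and the *H2-K1* to *Ptprc* difference from -0.64 to -0.36 with each library left out. With the replicate block, 1786 genes were called in all, against 3280 in the same 16 libraries without the block and 3673 in all 20, 2 class I genes were called (*B2m* had an edgeR adjusted p of 0.061), and *H2-Ab1* to *Ptprc* was -0.90 (adjusted p = 0.0938). Same-numbered libraries correlated above 0.1 in 2 of 8 pairs (-0.36 to 0.17). This cannot show whether they share more than a number, and the labels do not say. Why the results moved between settings was not tested. Depth limits the low genes, such as *Cd3e*, while the 10 genes had at least 12 counts in every library. The count intervals behind single values cover counting error only.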
